A study of Homo sapiens with 12 samples.

Results

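p53 is a transcription factor that stressed cells stabilise, and the 9 genes described here, MDM2, CDKN1A, BTG2, FAS, TNFRSF10B, RRM2B, SESN1, ZMAT3 and GDF15, are well-known targets of it. They were chosen by name: every probe that was not a control and whose gene name in the scanner files was one of these symbols, on all 12 arrays. That gave 15 probes for 9 genes, out of 36279 gene names on the array design. MDM2 had 4 probes, FAS 3, RRM2B 2 and the other genes 1 each, and probes of 1 gene are not replicates of a condition.

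RNA came from 3 human lung adenocarcinoma lines: A549, PC14, and PC14CDDP, a cisplatin-resistant line derived from PC14. Cultures of every line were transfected, at 25 nM, with 1 of 4 RNAs or oligonucleotides: pre-miR-197, a precursor that supplies the miRNA miR-197; NC, its negative control; LNA-miR-197, a locked nucleic acid oligonucleotide that blocks miR-197; and LNA-NC, the control of that oligonucleotide. All cultures were grown in the same medium with serum and were transfected with the same lipid reagent, and no array is of untransfected cells. Each transfection of each line was measured once, on 1 one-colour Agilent array, so the line is the replicate of a transfection and the 4 arrays of a line are cultures of 1 line.

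As background, p53 switches on genes that stop the cell cycle, repair DNA, limit oxidative damage or start cell death. MDM2 closes a feedback loop, since its protein tags p53 for destruction. A549 cells are known to carry p53 without a mutation, and cisplatin damages DNA and is known to activate p53 where it works. The p53 protein is controlled largely by its stability, so its activity is usually read from the mRNA of its targets. These arrays measured such mRNA, and neither p53 protein nor its activity was measured.

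The transfections supplied or blocked miR-197, and both of its mature arms are shown because the sample labels do not name an arm. They were taken from RefSeq on GRCh38.p14, where they lie on the plus strand of chromosome 1, at chr1:109598940-109598961 for the 3p arm and chr1:109598901-109598923 for the 5p arm. Capitals mark the seed, bases 2 to 8, which pairs with target mRNAs.
hsa-miR-197-3p: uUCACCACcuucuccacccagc
hsa-miR-197-5p: cGGGUAGAgagggcagugggagg

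p53 binds DNA as a tetramer at pairs of a palindromic half-site, and the members were searched for it because several of them differed together between lines. RefSeq windows from 250 bases before to 50 bases after a start site were matched for 7 of the 9 genes, with 15 windows in all. The p53 half-site consensus, which reads the same on both strands, was found without a mismatch in 2 of these 15 windows (13.3%) and in 2329 of all 35116 windows (6.63%). The matches were 122 bases before 1 of 3 FAS start sites and 49 bases before 1 of 3 SESN1 start sites. FAS is on the plus strand at chr10:88991299-88991328 and SESN1 on the minus strand at chr6:109009018-109009047 of GRCh38.p14, and each is shown in 30 bases with the half-site in capitals.
FAS: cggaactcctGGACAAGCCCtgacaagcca
SESN1: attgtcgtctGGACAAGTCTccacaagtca
A match describes these letters and not a bound site, and a window without one says nothing about p53 at that gene.

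Levels are given as log2 of the processed signal after division by that array's 75th percentile, so 0 is a signal at the percentile (613 to 719 units over the arrays). The share of probes well above background ran from 55.8% to 63.1% over the arrays, and 0 member spots were saturated. Of the 15 probes, 14 were well above background on all 12 arrays, and the FAS probe at chr10:90774148-90774207 was on 9. A549 was on 1 slide and the other lines shared another, so A549 and its slide cannot be told apart, and each transfection had the same position in every row of a slide. As to the labelled cell type, the epithelial keratins KRT8, KRT18, KRT7 and KRT19 were above background on all 12 arrays, but EPCAM and CDH1 were above background on 0 of 4 PC14CDDP arrays and on 4 of 4 A549 arrays. The lung lineage factor NKX2-1 was above background on 0 of 4 A549 arrays and on all arrays of the other lines, and the fibroblast genes COL1A2 and DCN on none. The endothelial gene PECAM1 was above background on 4 of 4 PC14 arrays and on 1 array of the other lines. PTPRC, CDH5, VWF and COL1A1, markers of other cell types, were above background on all 12 arrays, and their part in the results was not tested.

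More members were called between the lines than between the transfections. In A549, 6 of the 9 genes (MDM2, CDKN1A, BTG2, FAS, TNFRSF10B and GDF15) were higher than in PC14 and none was lower, by limma with Benjamini-Hochberg adjustment over 33712 probes at an adjusted p under 0.05, on the brightest probe of each gene. That test called 67.4% of all probes, and 35.6% of 25048 genes higher and 32.3% lower, so 6 called of 9 is near the background. With normexp background correction, SESN1, ZMAT3 and RRM2B also passed, for 9 of 9. Against PC14CDDP, A549 was higher for BTG2, FAS, TNFRSF10B, RRM2B and GDF15 and lower for SESN1 and ZMAT3, where 70.1% of probes, and 36.3% of genes higher and 33.9% lower, were called. In PC14CDDP against its parental line, CDKN1A, MDM2, TNFRSF10B, SESN1 and ZMAT3 were higher and GDF15 and RRM2B lower, 7 of 9, with 48.8% of probes, and 25.0% of genes higher and 23.3% lower, called. The number of calls thus sets the members little apart from other genes, and the sizes below carry the description. These p-values measure the spread between 4 differently transfected cultures of a line.

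**Figure D1:**
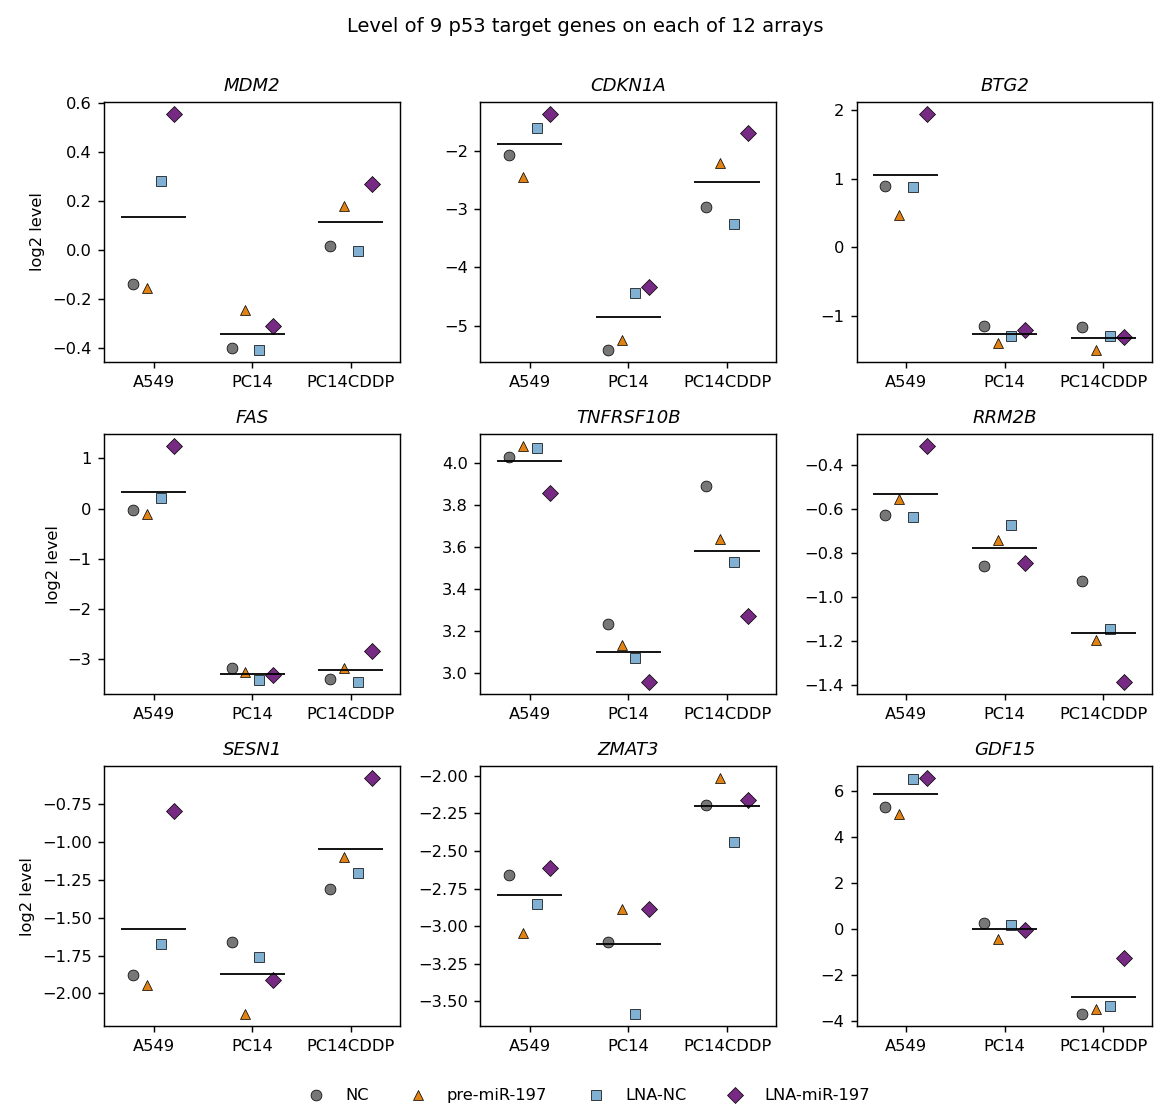
Log2 level of the brightest probe of each of the 9 genes (y axis, with 0 at the array's 75th percentile) on each of 12 arrays, by cell line (x axis) and transfection (symbol), with the mean of a line as a bar and a y axis of its own for each gene. GDF15 lay between 5.01 and 6.55 in A549 and between -3.71 and -1.28 in PC14CDDP. The LNA-miR-197 array of A549 was the highest of that line for every gene except TNFRSF10B, by little for GDF15 and ZMAT3.

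MDM2, the negative regulator of p53, was measured at chr12:69233570-69233629 (brightest), chr12:69233822-69233881, chr12:69236905-69236964 and chr12:69238891-69238950 of hg19, the build of the files. On the brightest probe the A549 levels were -0.14 with NC, -0.16 with pre-miR-197, 0.28 with LNA-NC and 0.56 with LNA-miR-197. In PC14 they were -0.40, -0.25, -0.41 and -0.31 in the same order, and the PC14CDDP levels were 0.02, 0.18, -0.00 and 0.27. The PC14 arrays were thus all below those of the other lines, which overlapped with each other. Level differences from PC14 were small: 0.48 in A549 (SE 0.14, adjusted p 0.0145) and 0.46 in PC14CDDP (SE 0.14, adjusted p 0.0246), or 1.39- and 1.37-fold. The other 3 probes were also higher in A549 than in PC14, by 0.93, 1.37 and 0.59, and all passed the test, while of their differences between PC14CDDP and PC14 only that at 69236905 passed (0.82, adjusted p 0.0231, lost without the NC arrays at 0.0807 and without the pre-miR-197 arrays at 0.111). Several of these calls lay near the threshold and were lost with fewer arrays while the differences stayed similar. On the brightest probe the difference of PC14CDDP was 0.47 without the NC arrays (adjusted p 0.0798), 0.47 without the LNA-NC arrays (0.0662) and 0.42 without the LNA-miR-197 arrays (0.0585), and that of A549 was 0.41 without the LNA-NC arrays (0.0780) and 0.35 without the LNA-miR-197 arrays (0.0759). The A549 call was also lost without the LNA-miR-197 arrays at 69233822 (0.0591), and at 69238891 without the NC (0.0984), LNA-NC (0.148) or LNA-miR-197 arrays (0.114). Between A549 and PC14CDDP no MDM2 probe passed, with the brightest at a difference of 0.02 (SE 0.14, adjusted p 0.906). The widest was 0.54 at 69236905 (SE 0.24, adjusted p 0.0777), which passed with normexp (0.0483) and with a trended robust prior (0.0453).

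CDKN1A encodes p21, the inhibitor of cyclin-dependent kinases through which p53 halts the cell cycle, and was measured at chr6:36652178-36652237. Its A549 levels were -2.06 with NC, -2.45 with pre-miR-197, -1.61 with LNA-NC and -1.36 with LNA-miR-197. PC14 had levels of -5.42, -5.24, -4.44 and -4.34, and the PC14CDDP levels were -2.96, -2.21, -3.26 and -1.68. Every PC14 array was lower than every array of the other lines, and A549 and PC14CDDP overlapped. PC14CDDP was higher than its parental line by 2.34 (SE 0.30, adjusted p 0.000338), which is 5.05-fold, and A549 was higher than PC14 by 2.99 (SE 0.30, adjusted p 3.89e-05), or 7.96-fold. Background correction by normexp with an offset of 50, which compresses dim probes, left these at 2.06-fold and 2.86-fold, with both calls kept. A549 and PC14CDDP differed by 0.66 (SE 0.30, adjusted p 0.0789), a difference that passed under normexp (adjusted p 0.0232) and without the pre-miR-197 arrays (0.0327). The order of levels was thus PC14 lowest, with PC14CDDP and A549 not separated by the main test.

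BTG2, an antiproliferative gene that p53 induces early, was measured at chr1:203278454-203278513. Its A549 levels were 0.90 with NC, 0.47 with pre-miR-197, 0.88 with LNA-NC and 1.94 with LNA-miR-197. In PC14 they were -1.15, -1.40, -1.30 and -1.21, and the PC14CDDP levels were -1.17, -1.51, -1.29 and -1.32. A549 stood above both other lines on every array, and PC14 and PC14CDDP covered the same range. The difference of A549 from PC14 was 2.31 (SE 0.22, adjusted p 2.81e-05; 4.97-fold) and from PC14CDDP 2.37 (adjusted p 2.06e-05), whereas PC14CDDP and PC14 differed by -0.06 (SE 0.22, adjusted p 0.857). CDKN1A and BTG2, both linked to growth arrest, were thus 5.05-fold and 1.04-fold apart between the resistant and the parental line, and whether these differences differ was not tested.

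FAS, the death receptor for FAS ligand, was measured at chr10:90774148-90774207, chr10:90774517-90774576 and chr10:90774545-90774604 (brightest), of which the last pair overlaps. On the brightest probe the A549 levels were -0.03 with NC, -0.11 with pre-miR-197, 0.22 with LNA-NC and 1.25 with LNA-miR-197. PC14 had levels of -3.17, -3.25, -3.40 and -3.31, and the PC14CDDP levels were -3.38, -3.18, -3.46 and -2.84. A549 lay far above both other lines, which overlapped. A549 exceeded PC14 by 3.61 (SE 0.22, adjusted p 2.30e-06; 12.2-fold) and PC14CDDP by 3.54 (adjusted p 2.11e-06; 11.7-fold), with 3.76 and 3.92 against PC14 on the other probes. With normexp the fold over PC14 on the brightest probe was 7.04, and on the dimmest 3.92 in place of 15.2. PC14CDDP and PC14 differed by 0.07, 0.00 and -0.11 on the 3 FAS probes, none of which passed.

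TNFRSF10B, which encodes the TRAIL receptor DR5, was measured at chr8:22877776-22877835 on the minus strand. Its A549 levels were 4.03 with NC, 4.08 with pre-miR-197, 4.08 with LNA-NC and 3.86 with LNA-miR-197. In PC14 they were 3.23, 3.14, 3.07 and 2.96, and the PC14CDDP levels were 3.89, 3.64, 3.53 and 3.27. The lines were ordered PC14, PC14CDDP, A549, with 1 PC14CDDP array above the lowest A549 array, and in each line the LNA-miR-197 array was the lowest. All 3 steps passed: PC14CDDP over PC14 by 0.48 (SE 0.09, adjusted p 0.00285), A549 over PC14 by 0.91 (adjusted p 4.30e-05) and A549 over PC14CDDP by 0.43 (adjusted p 0.00311). Its range over lines, 1.88-fold, was small beside the 12.2-fold of FAS.

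RRM2B, the p53-inducible subunit of ribonucleotide reductase that supplies nucleotides for repair, was measured on the minus strand at chr8:103217175-103217234 (brightest) and chr8:103219914-103219973. On the brightest probe the A549 levels were -0.63 with NC, -0.56 with pre-miR-197, -0.63 with LNA-NC and -0.31 with LNA-miR-197. PC14 had levels of -0.86, -0.74, -0.67 and -0.84, and the PC14CDDP levels were -0.93, -1.19, -1.14 and -1.39. A549 was highest and PC14CDDP lowest, without overlap between the lines. PC14CDDP was lower than PC14 by a small step, -0.39 (SE 0.13, adjusted p 0.0355), and this call was lost without the pre-miR-197 (adjusted p 0.137), LNA-NC (0.127) or LNA-miR-197 arrays (0.0521). It was also lost without the filter on dim probes (0.0543). A549 was higher than PC14CDDP by 0.63 (SE 0.13, adjusted p 0.00222) and than PC14 by 0.25 (adjusted p 0.121). The other RRM2B probe passed for no pair of lines, with differences of -0.31 for PC14CDDP against PC14, -0.17 for A549 against PC14 and 0.15 for A549 against PC14CDDP. The first of these passed without the LNA-miR-197 arrays (-0.47, adjusted p 0.0273).

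SESN1, a sestrin that limits oxidative damage and restrains mTORC1, was measured on the minus strand at chr6:109308477-109308536. Its A549 levels were -1.88 with NC, -1.95 with pre-miR-197, -1.67 with LNA-NC and -0.80 with LNA-miR-197. In PC14 they were -1.66, -2.14, -1.76 and -1.91, and the PC14CDDP levels were -1.31, -1.10, -1.21 and -0.58. PC14CDDP was higher than PC14 on every array, while A549 overlapped with both, and with PC14CDDP only through its LNA-miR-197 array. PC14CDDP exceeded PC14 by 0.82 (SE 0.20, adjusted p 0.0100), a call lost without the pre-miR-197 arrays (adjusted p 0.0600). A549 was lower than PC14CDDP, at -0.53 (SE 0.20, adjusted p 0.0450), and this was lost without the NC (0.0874), pre-miR-197 (0.194) or LNA-NC arrays (0.110). With all arrays it was lost too with normexp (-0.32, adjusted p 0.0674), without the filter on dim probes (0.0703), with transfection left out of the model (0.0879) and by Student's t-test (0.198). A549 and PC14 differed by 0.30 (SE 0.20, adjusted p 0.226).

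ZMAT3, a zinc finger protein that binds RNA, was measured on the minus strand at chr3:178742161-178742220. Its A549 levels were -2.66 with NC, -3.04 with pre-miR-197, -2.85 with LNA-NC and -2.61 with LNA-miR-197. PC14 had levels of -3.11, -2.89, -3.59 and -2.89, and the PC14CDDP levels were -2.19, -2.01, -2.44 and -2.16. PC14CDDP was above the other lines on every array. It exceeded PC14 by 0.92 (SE 0.14, adjusted p 0.000932), or 1.89-fold, and A549 by 0.59 (adjusted p 0.00542), and A549 and PC14 differed by 0.32 (SE 0.14, adjusted p 0.0720).

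GDF15, a secreted cytokine of the TGF-beta family that both p53 and the stress factors ATF4 and DDIT3 are known to induce, was measured at chr19:18499890-18499949. Its A549 levels were 5.31 with NC, 5.01 with pre-miR-197, 6.52 with LNA-NC and 6.55 with LNA-miR-197. The PC14 levels were 0.24, -0.44, 0.17 and -0.05, and the PC14CDDP levels were -3.71, -3.46, -3.33 and -1.28. The lines did not overlap, and GDF15 spanned the widest range of the 9 genes. A549 exceeded PC14 by 5.87 (SE 0.41, adjusted p 5.15e-06; 58.3-fold) and PC14CDDP by 8.79 (adjusted p 4.65e-07; 442-fold, and 223-fold with normexp). PC14CDDP was below its parental line, with a difference of -2.92 (SE 0.41, adjusted p 0.000589), which is 7.59-fold, and 4.43-fold with normexp. GDF15 and CDKN1A, the members that differed most between PC14CDDP and PC14, thus differed in opposite directions.

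**Figure D2:**
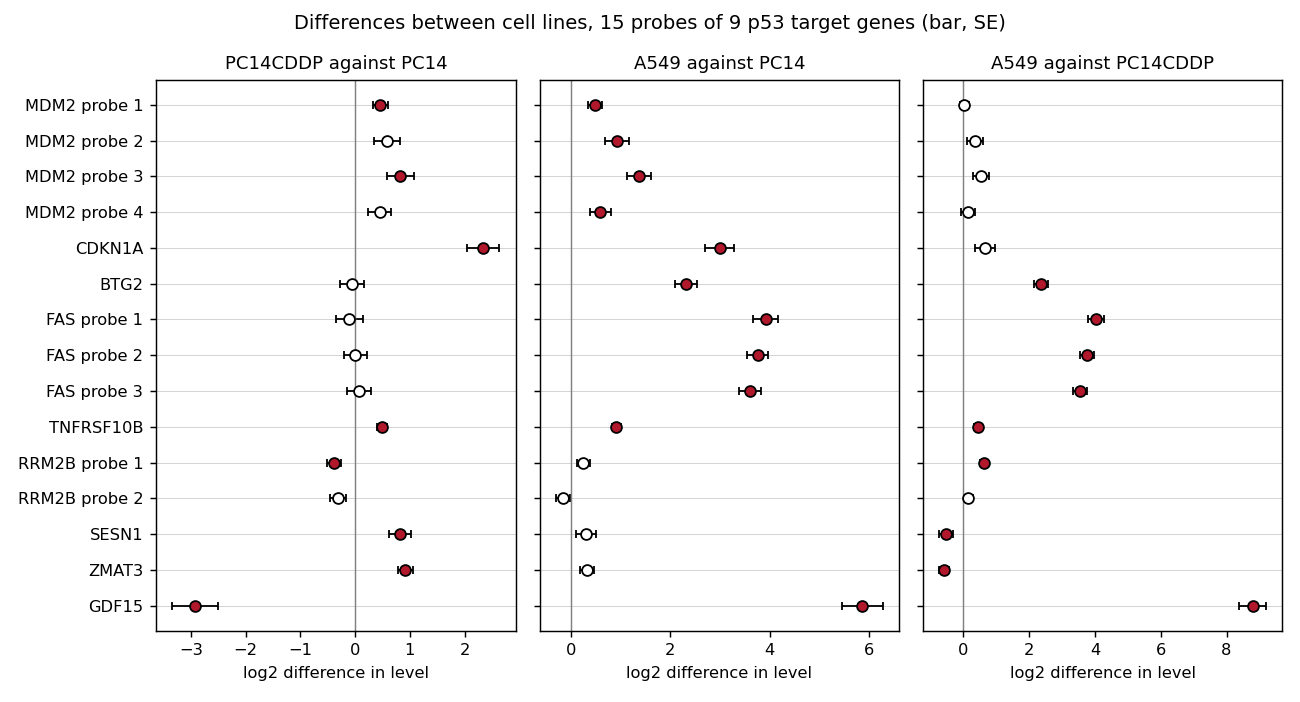
Log2 difference in level between lines (x axis, with its own scale in each panel) for each of the 15 probes (y axis, probes of a gene numbered by genome position), with bars of 1 SE from limma and filled points for an adjusted p under 0.05. CDKN1A and GDF15 lay at 2.34 and -2.92 in PC14CDDP against PC14, and the 3 FAS probes lay between 3.61 and 3.92 in A549 against PC14.

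The second question is whether supplying or blocking miR-197 moved these genes. After pre-miR-197 none of the 15 probes passed the test against NC, and 0 had an unadjusted p under 0.05 on the brightest probe of a gene, in a comparison where 0.0860% of all probes passed. The mean differences over the lines ranged from -0.34 for BTG2 (SE 0.25, adjusted p 0.562) to 0.43 for the MDM2 probe at 69236905 (SE 0.28, adjusted p 0.507). BTG2 was below NC in all 3 lines, at log2 ratios of -0.43, -0.25 and -0.34 for A549, PC14 and PC14CDDP, and its mean did not pass.

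After LNA-miR-197, 1 of the 15 probes passed against LNA-NC, where 8.00% of all probes passed, and 0 of the 9 genes did so on its brightest probe. On the brightest probes 1 of the 9 genes had an unadjusted p under 0.05, beside 9277 of all 33712 probes. The probe that passed was the RRM2B probe at 103219914. Its levels were -2.12, -1.97 and -2.45 with LNA-NC and -1.40, -1.39 and -1.24 with LNA-miR-197 in A549, PC14 and PC14CDDP. Its ratios were higher in all lines, 0.72, 0.58 and 1.20, with a mean of 0.83 (SE 0.16, adjusted p 0.0273). The brightest RRM2B probe, in the same gene, showed 0.32, -0.17 and -0.24, with a mean of -0.03 (SE 0.15, adjusted p 0.914), so the probes disagreed. The difference was 0.89 without A549, 0.96 without PC14 and 0.65 without PC14CDDP, fits in which 0 of 33712 probes passed, this one included (adjusted p 0.0921, 0.181 and 0.218). The call was also lost without the line as a block (adjusted p 1.00), with the slide as the block (0.181) and by Student's t-test. It was lost as well with only the arrays of the comparison (adjusted p 0.208) and without the filter on dim probes (0.0581). The 3 FAS probes had means of 0.96, 0.76 and 0.58, with adjusted p of 0.0805, 0.0896 and 0.186, and a filter that kept only probes above background on all arrays took the middle one past the threshold (adjusted p 0.0470). The other members had means between -0.20 for TNFRSF10B (adjusted p 0.274) and 0.64 for CDKN1A (SE 0.34, adjusted p 0.270).

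Within single lines, more member probes passed 1.5-fold in A549 and PC14CDDP than in PC14, and several of them belong to 1 gene. In A549, 7 of the 15 probes were at least 1.5-fold higher than with LNA-NC and 0 were 1.5-fold lower, against 7.23% of all probes higher and 12.2% lower. They were BTG2 (2.09-fold), the 3 FAS probes (2.03- to 2.27-fold), SESN1 (1.84-fold), the MDM2 probe at 69236905 (2.17-fold) and the RRM2B probe at 103219914 (1.64-fold). In PC14CDDP, 7 were higher and 0 lower, against 16.7% of all probes higher and 17.1% lower. Those 7 were GDF15 (4.15-fold), CDKN1A (2.98-fold), the FAS probes (1.53- to 2.67-fold), RRM2B at 103219914 (2.30-fold) and SESN1 (1.54-fold). The 3 FAS probes, which belong to 1 gene, SESN1 and RRM2B at 103219914 were higher in both A549 and PC14CDDP. How many of all probes were higher in both lines was not counted, so this overlap has no background beside it. BTG2 and GDF15 were each higher in 1 line. For the FAS probe at 90774148 the LNA-NC array of PC14CDDP was not well above background. In PC14, only ZMAT3 was higher (1.62-fold) and 0 were lower, against 8.97% of all probes higher and 8.20% lower. Counted on the brightest probe of a gene, BTG2, FAS and SESN1 were higher in A549, beside 7.01% of all genes. GDF15, CDKN1A, FAS and SESN1 were so in PC14CDDP (15.8% of genes) and ZMAT3 in PC14 (8.50%). These are ratios of 1 array to 1 array with a fold chosen after the values were seen, so they have no error, and whether the lines differ was not tested. The spread of the ratios over all probes was larger in PC14CDDP (SD 0.77) than in A549 (SD 0.60) and PC14 (SD 0.52).

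**Figure D3:**
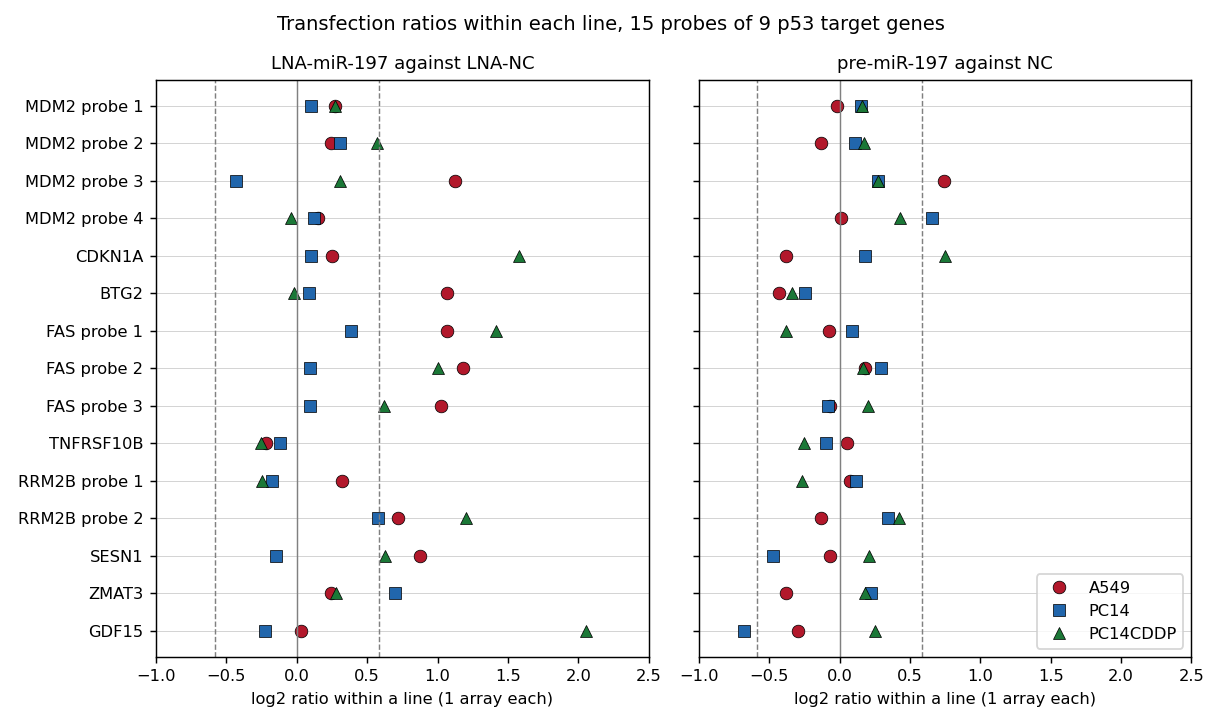
Log2 ratio of LNA-miR-197 to LNA-NC (left) and of pre-miR-197 to NC (right) within each line (symbol) for each of the 15 probes, 1 array over 1 array, with dashed lines at 1.5-fold. On the left, GDF15 and CDKN1A lay at 2.05 and 1.58 in PC14CDDP, and BTG2 lay at 1.06 in A549 and near 0 in the other lines.

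The LNA-NC arrays themselves differed from NC for some members, in ratios of 1 array to 1 array. The ratios within a line thus depended on the control, while the calls of members did not. No member passed in that comparison, where 0.460% of probes passed. On the brightest probes 0 members had an unadjusted p under 0.05, beside 4494 of all 33712 probes. In A549, GDF15 was 2.32-fold higher with LNA-NC than with NC and the MDM2 probe at 69233822 was 2.04-fold higher, and in PC14, CDKN1A was 1.98-fold higher. At least 1.5-fold higher were 3 of the 15 probes in A549 (8.89% of all probes), 2 in PC14 (6.29%) and 0 in PC14CDDP (8.20%). Lower by as much were 0, 1 and 1 (6.71%, 6.95% and 9.30%). Set against NC, which both comparisons then share, LNA-miR-197 gave 12 of 15 probes at least 1.5-fold higher in A549 (9.15% of all probes), 2 in PC14 (10.6%) and 6 in PC14CDDP (16.6%). There 0, 0 and 1 were lower (11.4%, 10.9% and 19.4% of all probes), the last being TNFRSF10B in PC14CDDP (log2 ratio -0.62). In this setting, chosen after seeing the data, CDKN1A was higher in all 3 lines, by 0.71, 1.08 and 1.27, with a mean of 1.02 (SE 0.34, adjusted p 0.0821). Its PC14 ratio rests on the dim signals given above. The RRM2B probe at 103219914 passed here as well (0.87, SE 0.16, adjusted p 0.0162), and no other member probe did. GDF15 was higher by 1.24 in A549 and 2.43 in PC14CDDP and stood at -0.30 in PC14. The difference between the pre-miR-197 and the LNA-miR-197 contrasts passed for none of the 15 probes, with 0.0504% of all probes called. On the brightest probes 0 members had an unadjusted p under 0.05 for it, beside 6214 of all 33712 probes.

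The other genes of the pathway were read from a list of 45 regulators and targets of p53, the 9 members included, of which 44 could be tested on the brightest probe. In A549 against PC14, 30 were higher and 6 lower, where 35.6% of all genes were called higher and 32.3% lower, with a median log2 difference of 0.75 against 0.08 over all genes. Without the members 24 of 35 were higher and 6 lower. Of the 8 genes in the group of other targets, TRIM22 was not tested and the other 7 were higher in A549, among them SPATA18, which passed the filter on dim probes only through the 4 A549 arrays where it was high. In other groups 9 of 14 cell death genes were higher and 3 lower, and 4 of 6 growth arrest genes were higher and 1 lower. Beyond the members, the largest increases were of EDA2R, a TNF receptor that p53 induces, at least 82.5-fold, SPATA18, which acts in the quality control of mitochondria, at least 21.3-fold, PHLDA3, an inhibitor of AKT (log2 5.79), SFN, which encodes 14-3-3 sigma and holds cells in G2 (5.17), and PLK2, a polo-like kinase (4.02). EDA2R and SPATA18 were not well above background on any PC14 array, so each has a bound in place of a fold, taken against the higher of its own signal and the lowest signal above background. Like SPATA18, EDA2R passed the filter on dim probes only through A549, where it was high. The filter thus favoured the increases of both in A549, and the counts above include them. The decreases were led by GADD45A, a DNA damage response gene (-1.87), TP53AIP1, a mitochondrial death gene (-1.06), TNFRSF10D, a decoy receptor of TRAIL (-0.82), CCNG1, which encodes cyclin G1 (-0.64) and POLH, a DNA polymerase that bypasses lesions (-0.45).

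Against PC14CDDP, A549 was higher for 25 of 44 and lower for 9, where 36.3% of all genes were called higher and 33.9% lower, with a median of 0.58 against 0.05 over all genes. The largest increases beyond the members were of SFN (7.57), SPATA18 (at least 15.98-fold), EDA2R (5.94, above background on 2 of 4 PC14CDDP arrays), PHLDA3 (5.59) and PLK2 (4.50). SPATA18 and EDA2R passed the filter on dim probes only through A549, so the filter favoured their increases, which the count includes. The largest decreases were of TNFRSF10D (-2.32), GADD45A (-1.87), TNFRSF10A, a TRAIL receptor that signals death (-1.13), PLK3, another polo-like kinase (-0.71) and AEN, an apoptosis-enhancing nuclease (-0.60). As A549 was alone on its slide, none of these differences can be told apart from it.

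In PC14CDDP against PC14 the list was near the background: 16 of 44 were called higher and 10 lower, where 25.0% of all genes were called higher and 23.3% lower, with a median of 0.07 against 0.04 over all genes. EDA2R led by its fitted value, but it was above background on 0 of 4 PC14 and 2 of 4 PC14CDDP arrays, so that its bound of at least 1.35-fold is below the increases of the others named. Those were of TNFRSF10D (1.49), TP53INP1, a stress protein that promotes autophagy and death (1.15), AEN (1.10) and PIDD1, a scaffold of a caspase-activating complex (0.87). The largest decreases were of SFN (-2.40), TNFRSF10C, another TRAIL decoy receptor (-1.43), DRAM1, a lysosomal autophagy gene (-0.92), TIGAR, which lowers glycolysis (-0.81) and CCNG1 (-0.78). Of the 4 TRAIL receptors, TNFRSF10A, TNFRSF10B and TNFRSF10D were thus higher in the resistant line and TNFRSF10C, above background on 3 of 4 PC14CDDP arrays, lower.

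**Figure D4:**
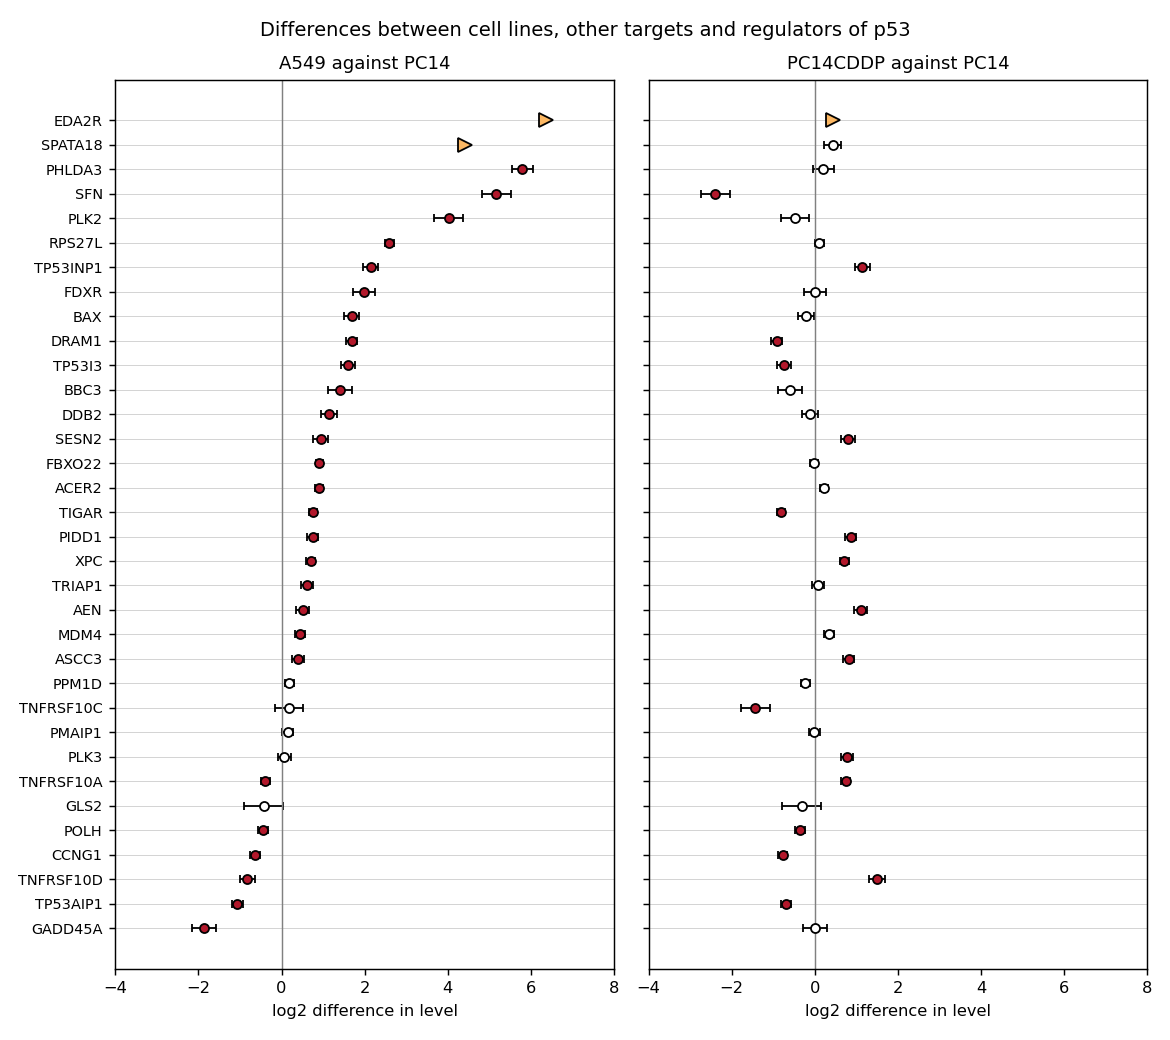
Log2 difference in level (x axis) of A549 and of PC14CDDP from PC14 for the tested genes of the p53 list that are not among the 9 members and are not p53's own gene, with bars of 1 SE, filled points for an adjusted p under 0.05, and triangles for lower bounds of genes not above background in PC14. PHLDA3 and SFN lay at 5.79 and 5.17 in A549, and SFN lay at -2.40 in PC14CDDP.

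After LNA-miR-197, 3 of the 44 genes rose against LNA-NC and 0 fell, beside 3.86% of all genes that rose. They were PMAIP1, which encodes the death protein NOXA (0.75, adjusted p 0.0308), POLH (0.59, adjusted p 0.0380) and SESN2, a sestrin (0.84, adjusted p 0.0466). With any 1 line left out, 0 of 33712 probes passed, so those fits say nothing about these genes in particular. After pre-miR-197, for the difference between the contrasts and for LNA-NC against NC, 0 were called. Within A549, 11 of the 35 genes outside the 9 were at least 1.5-fold higher with LNA-miR-197 than with LNA-NC and 0 were lower. Of all genes, 7.01% were higher and 11.7% lower. In PC14 these counts were 4 and 1 (8.50% higher and 8.13% lower of all genes) and in PC14CDDP 6 and 4 (15.8% and 16.9%). Set against NC, 17 of 35 were higher and 0 lower in A549 (9.09% of genes higher), 5 were higher and 3 lower in PC14 (10.3% higher), and 4 were higher and 6 lower in PC14CDDP (where 16.6% of probes were higher).

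Other stress genes were counted in the same arrays, beside the shares of all 25048 genes at least 1.5-fold higher or lower. With LNA-miR-197 against LNA-NC those shares were 15.8% higher and 16.9% lower in PC14CDDP. They were 8.50% and 8.13% in PC14, and 7.01% and 11.7% in A549. Of 7 targets of ATF4 and DDIT3, which also induce GDF15 and SESN2, 5 were at least 1.5-fold higher and 1 lower with LNA-miR-197 than with LNA-NC in PC14CDDP, 3 and 0 in PC14, and 0 and 0 in A549, with log2 ratios in PC14CDDP from -0.78 to 4.11, the highest being ATF3. In A549, 6 of these 7 were higher with LNA-NC than with NC, where 9.01% of all genes were. GDF15 was 2.32-fold higher in that comparison. Of 8 interferon-stimulated genes, 5 were higher and 1 lower with LNA-miR-197 in A549, and 0 were higher and 2 lower in each of the other lines. SESN2 is on both the p53 and the ATF4 list. The part of these responses in the members' ratios was not tested.

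The genes whose levels ran most like those of the members over the 12 arrays were sought among 18535 genes above background on every array. For BTG2 the nearest by Pearson's r were FBXO22, itself on the p53 list (0.99), SERPINF1 (0.98) and an unnamed transcript, and for FAS they were SERPINF1, DEFB1 and FBXO22 (each 0.99). For CDKN1A they were MFF, RFK and LCTL (0.98, 0.98 and 0.97), and for GDF15 NOL3 and C1S (both 0.99) and an unnamed transcript. The nearest gene to TNFRSF10B was WASHC4 (0.99), to RRM2B ETHE1 (0.97), to SESN1 ZNF17 (0.93) and to ZMAT3 SERTAD4-AS1 (0.93), and among named genes to MDM2 PLCL2 (0.92). The 4 arrays of a line share most of this pattern, so r mainly describes the order of the lines.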

How the data were processed

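RNA of 12 cultures was hybridised to 1-colour Agilent 8x60K arrays. The authors scanned them with Agilent Feature Extraction 10.7.3.1 (from the submitters' processing notes) and deposited the intensity of each spot as a processed signal, background-subtracted and not scaled between arrays, and a value table that equalled it on all 62976 spots. A normalization was not given in the sources used here, and 0 columns belonged to other samples. Here, outlier and control spots were left out, repeat spots were averaged, and each deposited signal was put on a log2 scale after division by Feature Extraction's 75th percentile. Of 50599 probes, 106 with missing values were left out and 33712 that were well above background on at least 3 arrays were tested. The brightest probe stood for a gene in lists (25048 genes), named through RefSeq accessions (55.7% of probes) or by the file's name. Probe coordinates are on hg19. Exons and UTRs were not assigned here.

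limma 3.58.1 in R 4.3.3 was fitted with transfection and line as terms, with eBayes and Benjamini-Hochberg adjustment, and was tested on simulated arrays. Where a line or a transfection was left out, the spread was pooled over the remaining arrays. Arrays of 1 line deviated together (r 0.929 to 0.947 in A549, 0.879 to 0.903 in PC14, 0.845 to 0.897 in PC14CDDP), so the line pairs the transfections. Named were the 9 members, the 5 largest increases and decreases of the p53 list in each comparison, and the 3 genes most like a member. The members, lists and tests were chosen with earlier results of these data known. The list's count includes p53's own gene, which is not reported singly here. Alternatives were quantile normalization, normexp, the value table, other filters and probe summaries, a trended robust prior, fewer arrays, no block, the slide, the methods' t-test, and, chosen after seeing the data, another 75th percentile and NC as the LNA control. Files were read with pandas 2.3.3 in Python 3.11.15, and plots were made with matplotlib 3.10.9. The number of arrays limits the precision.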

Additional observations from a re-analysis of the deposited data

Results flagged for a closer look

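CDKN1A changed in opposite directions in different lines, by more than 1.2-fold each way, in 2 comparisons. With pre-miR-197 against NC it was higher in PC14CDDP (0.75) and lower in A549 (-0.38), a gap of 1.13 on the log2 scale. With LNA-NC against NC it was higher in PC14 (0.98) and lower in PC14CDDP (-0.30), a gap of 1.29. Each line had 1 array per transfection, and the difference was not tested.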

How the results depend on the processing

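The number of members called stayed within 1.5 times of its main value under every alternative run for the 7 comparisons, the widest being 9 with normexp in place of 6 for A549 against PC14. For the wider p53 list, 0 genes were called after pre-miR-197, and 1 with the filter on all 12 arrays or the trended robust prior. After LNA-miR-197, 3 were called, and 7 with normexp, 6 with the filter on all 12 arrays, 6 with the trended robust prior, 0 with no filter, from 0 to 0 when a line was left out (fits in which no probe of the array passed), and 0 with no replicate block. For the difference between the contrasts 0 were called, and 2 with normexp, 2 with the filter on all 12 arrays and 3 with the trended robust prior. Over all probes, pre-miR-197 gave 29 calls (0 to 633 under the alternatives), LNA-miR-197 2697 (0 to 5009), their difference 17 (0 to 866) and LNA-NC 155 (0 to 328), and the cause was not tested. By the methods' t-test at an unadjusted p under 0.05, 557 probes were called after pre-miR-197, 1055 after LNA-miR-197 and 995 with LNA-NC, none of them the brightest probe of a member, and 0 passed after Benjamini-Hochberg adjustment. Leaving out the line as a block lost the RRM2B call named above and changed no other member's call after a transfection.

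Of the values of single probes under an alternative, 1483 kept direction and call, 35 lost the call, 14 gained one and 42 turned in sign, none of them called in the main fit. Turned values were, with normexp, -0.0394 for FAS at 90774545 and -0.0235 for ZMAT3 after pre-miR-197, -0.0059 for the difference of contrasts at RRM2B, 0.0042 and -0.0151 for the RRM2B probes with LNA-NC and 0.0916 for FAS at 90774148 between PC14CDDP and PC14. With the mean of a gene's probes they were, for RRM2B, 0.0921 after pre-miR-197, 0.40 after LNA-miR-197, -0.31 for the difference and 0.0114 with LNA-NC, and -0.0114 for FAS between PC14CDDP and PC14. With the other percentile they were -0.0012 for ZMAT3 after pre-miR-197 and -0.0146 for the RRM2B difference, and with quantile normalization -0.0038 for that difference and 0.0086 for FAS at 90774545 with LNA-NC.

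With a line left out, values after pre-miR-197 ranged from -0.10 to 0.46 for CDKN1A, -0.23 to 0.0086 and -0.0787 to 0.0657 for FAS at 90774148 and 90774545, -0.0104 to 0.14 for MDM2 at 69233822, -0.10 to 0.0937 for RRM2B, -0.27 to 0.07 for SESN1 and -0.10 to 0.20 for ZMAT3. After LNA-miR-197 they ranged from -0.10 to 1.04 for GDF15 (lowest without PC14CDDP), -0.0625 to 0.71 for MDM2 at 69236905 and -0.21 to 0.0739 for RRM2B. The difference of contrasts ranged from -0.21 to 0.33 for MDM2 at 69236905 and -0.14 to 0.13 for RRM2B. With LNA-NC the ranges were -0.0143 to 0.16 and -0.16 to 0.0907 for FAS at 90774517 and 90774545, -0.0154 to 0.21 and -0.0482 to 0.54 for MDM2 at 69233570 and 69233822 and -0.11 to 0.0893 for RRM2B. With the arrays of a transfection left out, FAS between PC14CDDP and PC14 ranged from -0.38 to 0.0783, -0.21 to 0.10 and -0.065 to 0.16 at its 3 probes, and MDM2 between A549 and PC14CDDP from -0.0693 to 0.14 at 69233570 and -0.063 to 0.38 at 69238891.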

Other observations

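With the mean of each line subtracted, the members' deviations over the 12 arrays ran together for some pairs and not for others. Pearson's r on the brightest probes was 0.92 for FAS and SESN1, 0.90 for FAS and MDM2, 0.83 for BTG2 and FAS and 0.80 for GDF15 and SESN1. It was -0.67 for CDKN1A and TNFRSF10B, -0.69 for GDF15 and TNFRSF10B and 0.07 for RRM2B and SESN1. The LNA-miR-197 array was the highest of its line for FAS and SESN1 in A549 and PC14CDDP, so a few arrays carry these values. By the same measure the nearest genes to SESN1 were ZNF17 (0.94), RDH10 (0.93) and FBXO22 (0.93), the last of them on the p53 list. For the other members none of the 3 nearest was on that list. The nearest named gene was VCX2 for BTG2 (0.95), SMPDL3A for CDKN1A (0.96), KRT4 for FAS (0.96) and ZNF436 for GDF15 (0.94). It was ZNF284 for MDM2 (0.96), FAM114A1 for RRM2B (0.92) and ZNF850 for ZMAT3 (0.94), and those of TNFRSF10B were unnamed transcripts.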
